A study of Rattus norvegicus with 50 samples.

Results

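The Cyp3a cytochromes described here are Cyp3a2, Cyp3a9 and Cyp3a18, 3 genes of 14217 measured in rat liver. They were chosen by symbol, each through the probe set (a group of short probes for 1 transcript) with the highest mean over all samples, and each had 1 probe set that carries its symbol alone. All 50 rats were female Brown Norway rats (Bn/Crl, MHC haplotype RT1n) of 9 to 11 weeks, and 1 Affymetrix array was run per liver. The series was made to follow the 8 days in which livers exposed to both nevirapine and galactosamine become fibrotic. Galactosamine, a sugar that injures hepatocytes, was given once into the abdomen at 750 mg/kg, and livers were taken 3 h, 24 h, 48 h and 8 d later. Nevirapine, an antiretroviral drug, was given by mouth at 150 mg/kg for 1 day and 100 mg/kg for 2 days, then at 75 mg/kg after a pause of 1 day, and livers were taken 3 h, 24 h, 48 h and 15 d after its first dose. Combination rats had nevirapine for 7 days before galactosamine and continued on it, and their times run from galactosamine. Their livers were therefore taken after 7 d, 8 d, 9 d and 15 d of nevirapine. Vehicle rats were sham dosed and sampled at 3 h, 24 h, 48 h, 8 d and 15 d. Each of the 17 groups held 3 rats, except galactosamine at 48 h with 2. The last oral dose preceded sampling by 2 h, except by 5 h in the vehicle, galactosamine and combination groups at 3 h and by 3 h in the nevirapine group at 3 h. The combination at 8 d was compared with vehicle at 15 d. By their labels the sham injection of vehicle rats at 15 d lay 15 d back, and that of nevirapine rats at 15 d, like the galactosamine injection of these combination rats, 8 d back. At 3 h it lay 3 h back in vehicle and 1 h back in nevirapine rats.

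Cytochromes P450 of the 3A subfamily are membrane enzymes of the hepatocyte that oxidise a wide range of drugs and steroids, taking electrons from P450 oxidoreductase and carrying heme. Their genes are switched on when drugs activate the nuclear receptors PXR and CAR, which bind as partners of RXR to repeated copies of a 6-base site near the gene. In the rat, Cyp3a2 and Cyp3a18 are known as forms with higher levels in adult males, and Cyp3a9 as a form with higher levels in females. Nevirapine is itself oxidised by cytochromes P450 of this subfamily and is known to induce them.

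In the RefSeq annotation of the GRCr8 assembly all 3 genes lie on chromosome 12: Cyp3a18 at chr12:13994312-14044185, Cyp3a2 at chr12:14321771-14343886 and Cyp3a9 at chr12:21919955-21960160. Cyp3a23-3a1 (chr12:14369950-14398803) is the other gene of the array whose symbol starts with Cyp3a, and it is described mainly in a paragraph of its own below. It lies 26.1 kb from Cyp3a2, while 277.6 kb separate Cyp3a18 from Cyp3a2, and 7521.2 kb separate Cyp3a9 from Cyp3a23-3a1. Positions -190 to -41 relative to each annotated start are shown 5′ to 3′ on the gene's own strand, because they hold every copy of the hexamer AGTTCA (or its reverse complement TGAACT) found within 250 bases before the start. Capitals mark the hexamer. The windows are chr12:14343898-14344047 for Cyp3a2, chr12:14398844-14398993 for Cyp3a23-3a1, chr12:21960201-21960350 for Cyp3a9 (these 3 on the minus strand) and chr12:13994122-13994271 for Cyp3a18 (plus strand).
Cyp3a2: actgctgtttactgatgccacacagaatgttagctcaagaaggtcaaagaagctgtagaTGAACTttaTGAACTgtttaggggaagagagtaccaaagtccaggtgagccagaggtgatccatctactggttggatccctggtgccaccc
Cyp3a23-3a1: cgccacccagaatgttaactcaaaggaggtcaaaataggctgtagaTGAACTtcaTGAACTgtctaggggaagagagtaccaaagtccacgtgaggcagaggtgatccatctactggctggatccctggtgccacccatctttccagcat
Cyp3a9: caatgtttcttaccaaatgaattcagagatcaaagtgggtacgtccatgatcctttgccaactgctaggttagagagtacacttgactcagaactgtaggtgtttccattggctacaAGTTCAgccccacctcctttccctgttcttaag
Cyp3a18: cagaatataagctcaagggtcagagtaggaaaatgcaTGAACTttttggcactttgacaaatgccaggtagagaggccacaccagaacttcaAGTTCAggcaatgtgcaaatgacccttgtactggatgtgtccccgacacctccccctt
Cyp3a2 and Cyp3a23-3a1 each held 2 hexamers as a direct repeat with a gap of 3 bases, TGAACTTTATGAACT from -131 to -117 in Cyp3a2 and TGAACTTCATGAACT from -144 to -130 in Cyp3a23-3a1. This repeat, searched on both strands as AGTTCANNNAGTTCA, was found in 2 of 33469 promoter windows of 250 bases (0.00598%), which are these 2 genes. Cyp3a9 held a single hexamer from -73 to -68. Cyp3a18 held hexamers from -153 to -148 and from -98 to -93, in opposite directions and without the 3-base gap. The hexamer alone, which overlaps the repeat, was in 12.2% of windows. Over the 250 bases, Cyp3a2 and Cyp3a23-3a1 were 79.2% identical when aligned, against 50.4% to 57.3% for the other pairs. Because these genes are close copies, reads of RNA from 1 of them on the probes of another could not be examined here, and the separate signals are uncertain to that extent.

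**Figure D1:**
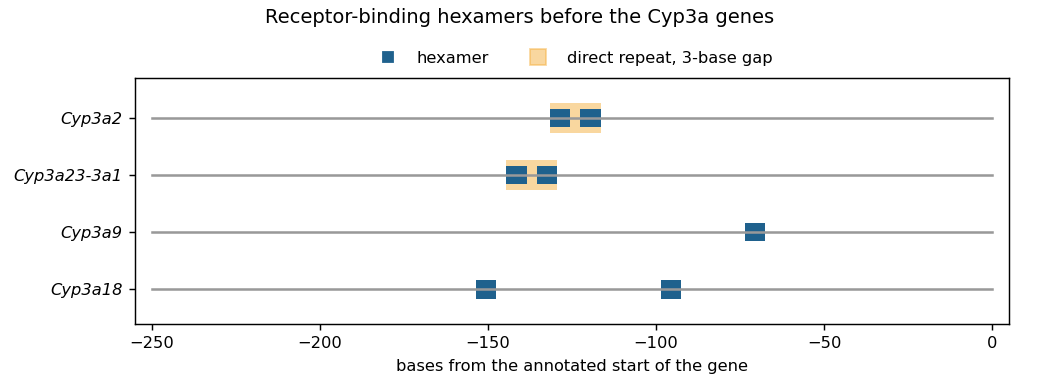
Positions of the hexamer AGTTCA or its reverse complement (blue boxes) and of its direct repeat with a 3-base gap (orange) in the 250 bases before each annotated start, drawn to scale in bases from the start. The repeat is seen in Cyp3a2 and Cyp3a23-3a1, while Cyp3a9 has 1 hexamer and Cyp3a18 has 2 that are not a repeat.

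Signals are log2 values, so a difference of 1 is a doubling, and a gene was called where the adjusted p of limma (Benjamini-Hochberg over all 14217 genes) was under 0.05. Differences are given with their standard error. The median signal of an array ran from 4.954 to 5.093. Degraded RNA raises the signal of 3′ over 5′ GAPDH probe sets, and this log2 gap ran from 0.0089 to 0.86. At 48 h it did not overlap between vehicle (0.483 to 0.744), galactosamine (0.130 to 0.145) and the combination (0.293 to 0.348). Nor did it between the combination (0.184 to 0.277) and galactosamine (0.391 to 0.531) at 24 h, or between nevirapine (0.197 to 0.211) and vehicle (0.0347 to 0.118) at 15 d. With this gap as a covariate, 1 call of the 3 genes was lost, that of Cyp3a9 at 48 h of nevirapine. Hepatocyte markers were bright in every group: the log2 of the summed signals of 9 markers lay between 16.3 and 16.5. Such a sum weighs the brightest markers most. At 24 h it ran from 16.32 to 16.34 in galactosamine rats, below the 16.42 to 16.48 of vehicle rats. At 48 h galactosamine rats (16.48) lay above vehicle rats (16.43 to 16.45). Probe sets for Bacillus subtilis control genes, which rat RNA should not light up, reached a mean of 4.37, and a lower signal is not shown to exceed background.

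In the 15 vehicle rats, Cyp3a2 ran from 5.10 through a median of 5.84 to 8.89, Cyp3a9 from 10.4 through 11.2 to 11.8, and Cyp3a18 from 9.18 through 10.1 to 11.4. The Cyp3a2 range was set by vehicle rat 100 at 8 d (8.89) and vehicle rat 10 at 48 h (8.52), which stood apart from the other 13 vehicle rats. Levels of the 5 vehicle groups did not pass limma's F test for Cyp3a2 (adjusted p = 0.227), Cyp3a9 (adjusted p = 0.271) or Cyp3a18 (adjusted p = 0.0866), where 29.6% of all genes did.

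Cyp3a2 rose under nevirapine and rose most in the combination. With nevirapine alone it read 8.41, 6.56 and 5.53 at 3 h, then 9.43, 7.18 and 7.55 at 24 h. At 48 h the 3 rats read 10.46, 11.76 and 10.02, and at 15 d they read 8.06, 9.93 and 9.25. From 24 h on, every nevirapine rat was above every vehicle rat of its time. The rise was 11.5-fold at 48 h (log2 3.53 ± 0.75, adjusted p = 0.00121) and 11.9-fold at 15 d (log2 3.58 ± 0.75, adjusted p = 0.000972), the second largest rise of all genes at either time. The differences at 3 h (log2 1.13 ± 0.75, adjusted p = 0.333) and 24 h (log2 2.14 ± 0.75, adjusted p = 0.0584) did not pass, although the 24 h value did under 4 other settings and without nevirapine rat 38 (adjusted p = 0.049). The 3 h value ran from 0.34 without nevirapine rat 31 to 1.78 without rat 33. Of all genes, nevirapine called 15.1% at 3 h, 11.2% at 24 h, 17.4% at 48 h and 13.9% at 15 d. Without vehicle rat 10 the rise at 48 h was log2 4.18.

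In combination rats Cyp3a2 read 8.92, 10.40 and 9.36 at 3 h, a time at which they had received nevirapine for 7 days. It was lower at 24 h, with 7.16, 8.37 and 7.60, and higher again at 48 h, with 12.01, 12.08 and 9.20. At 8 d it read 11.35, 12.23 and 11.18, the highest group mean of the study. In 9 of the 12 combination rats Cyp3a2 exceeded the highest of all 15 vehicle rats; the other 3 are the rats at 24 h. Against vehicle the rise was 14.5-fold at 3 h (log2 3.85 ± 0.75, adjusted p = 0.000127), 14.7-fold at 48 h (log2 3.88 ± 0.75, adjusted p = 0.000318) and 67.8-fold at 8 d (log2 6.08 ± 0.75, adjusted p = 2.51e-07). The last was the largest difference of any gene in that comparison. At 24 h the groups did not overlap, but the difference (log2 1.80 ± 0.75, adjusted p = 0.0574) did not pass, except under 3 other settings. The combination called 32.5%, 36.7%, 15.9% and 24.8% of all genes at 3 h, 24 h, 48 h and 8 d. Set against vehicle at 8 d, where rat 100 was high, the combination at 8 d differed by log2 4.80 (adjusted p = 2.2e-05). Fitted on its own groups, the rise at 48 h missed the threshold (adjusted p = 0.0519), and it was log2 4.82 without combination rat 72 and log2 4.53 without vehicle rat 10.

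**Figure D2:**
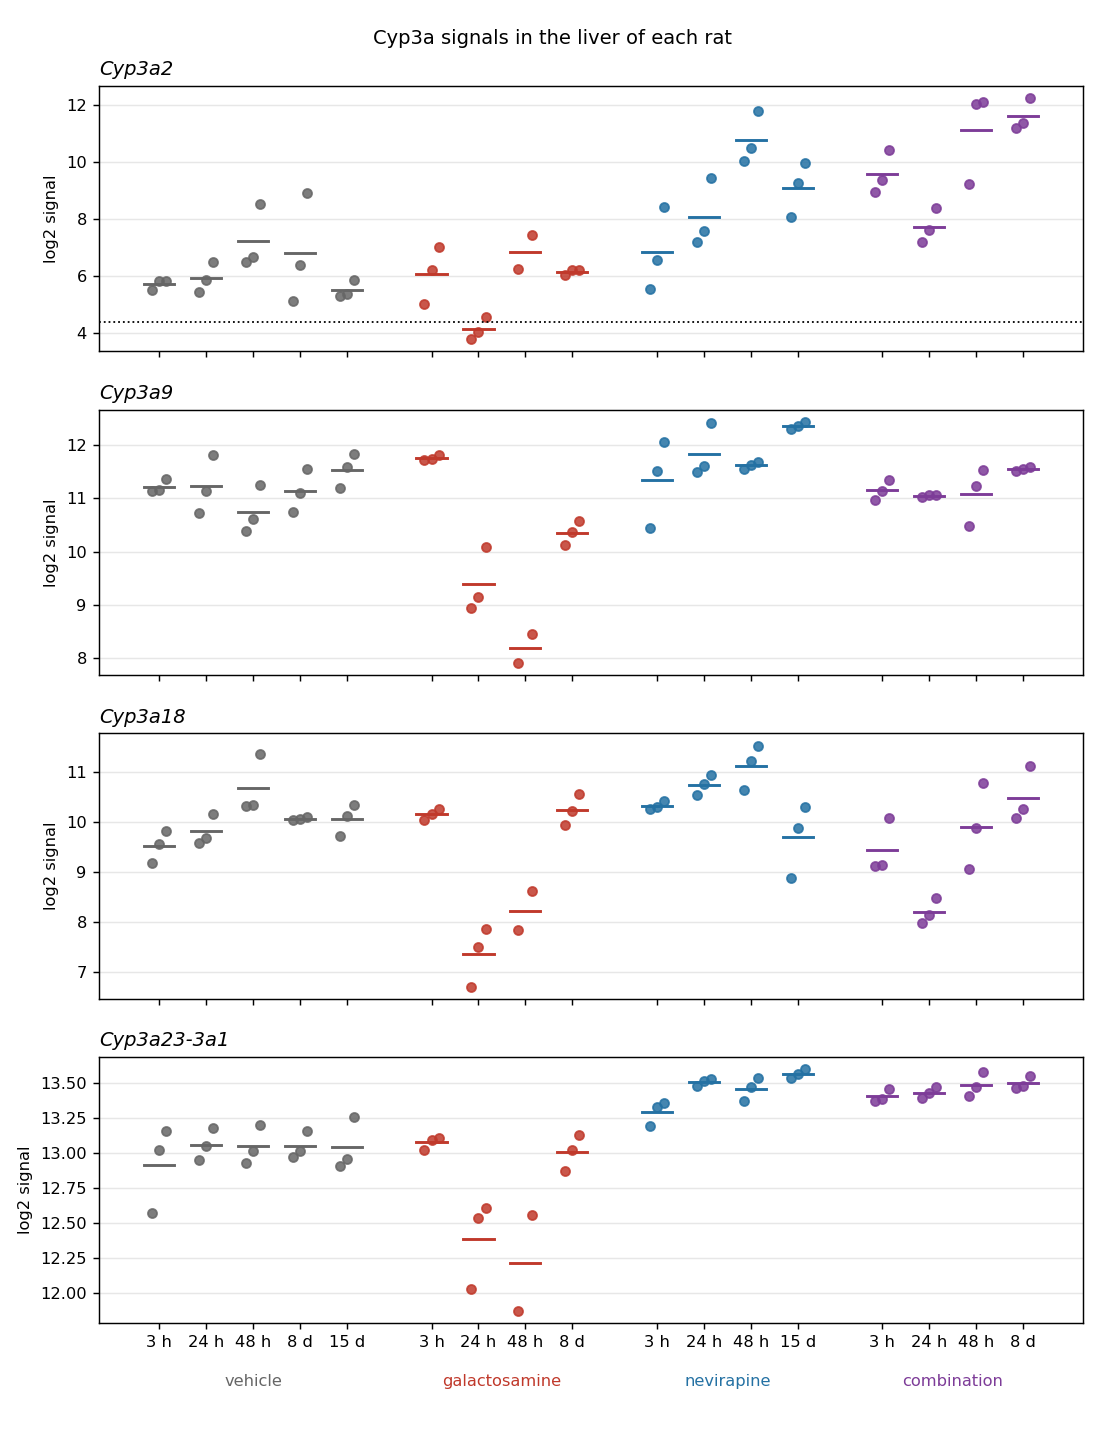
Log2 signal of the 3 genes and of Cyp3a23-3a1 in each of 50 rats (points) by treatment and time, with group means as bars; vertical scales differ between panels and do not start at 0, and the dotted line in the first panel is the control level of 4.37. Cyp3a2 climbs to 11.59 in the combination at 8 d, while Cyp3a9 and Cyp3a18 fall at 24 h and 48 h of galactosamine.

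Galactosamine alone left Cyp3a2 at background at 24 h. The 3 rats read 4.02, 4.55 and 3.77, below all vehicle rats, and 1 of them was above the control level of 4.37. The fall was at least 2.79-fold, counting each dim rat at no less than that level (fitted log2 -1.80 ± 0.75, adjusted p = 0.0383), in a comparison that called 58.8% of all genes. The call was lost when limma's robust, trended prior was used (adjusted p = 0.0525) and when galactosamine rat 22 or 24, or vehicle rat 5 or 6, was left out (adjusted p up to 0.131). At 3 h Cyp3a2 read 6.19, 5.02 and 7.01, at 48 h 6.22 and 7.42, and at 8 d 6.20, 6.03 and 6.19, each overlapping vehicle (adjusted p = 0.764, 0.73 and 0.998). In these whole livers, fewer hepatocytes and less RNA per hepatocyte cannot be told apart.

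Cyp3a9 fell after galactosamine and hardly moved in the combination. It read 8.93, 10.08 and 9.14 at 24 h and 7.90 and 8.46 at 48 h of galactosamine, against 11.14, 11.81 and 10.73 and then 10.38, 11.25 and 10.62 in vehicle, with no overlap. The fall was 3.59-fold at 24 h (log2 -1.84 ± 0.30, adjusted p = 1.74e-06) and 5.94-fold at 48 h (log2 -2.57 ± 0.34, adjusted p = 1.18e-07), where 39.4% of genes were called and Cyp3a9 was the tenth of all falls in size. At 3 h its 3 galactosamine rats (11.81, 11.74 and 11.73) were above vehicle (11.37, 11.14 and 11.15), but the difference did not pass (log2 0.54 ± 0.30, adjusted p = 0.182; 32.9% of genes called) except in a fit of those groups alone (adjusted p = 0.00259). At 8 d the galactosamine rats (10.13, 10.37 and 10.58) stayed below vehicle (11.56, 11.10 and 10.74), and the difference again did not pass (log2 -0.78 ± 0.30, adjusted p = 0.637), in a comparison that called 0.0352% of genes.

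With nevirapine alone Cyp3a9 read 10.44, 12.06 and 11.52 at 3 h and 11.50, 12.41 and 11.60 at 24 h, overlapping vehicle. It read 11.55, 11.68 and 11.64 at 48 h and 12.35, 12.30 and 12.44 at 15 d, above every vehicle rat of the same time. The rise of 1.83-fold at 48 h passed (log2 0.87 ± 0.30, adjusted p = 0.04), and the 1.77-fold difference at 15 d did not (log2 0.82 ± 0.30, adjusted p = 0.0627), although at 15 d all 3 rats exceeded all 15 vehicle rats. The 48 h call was lost when any rat but vehicle rat 11 was left out (adjusted p up to 0.16), with all vehicle rats as 1 control (log2 0.45, adjusted p = 0.236), and with the GAPDH difference as a covariate (adjusted p = 0.106), while the 15 d difference passed with array weights (adjusted p = 0.000839) and 3 other settings. In the combination Cyp3a9 read 11.15, 10.97 and 11.34 at 3 h, 11.02, 11.06 and 11.07 at 24 h, 11.23, 10.47 and 11.54 at 48 h, and 11.51, 11.59 and 11.55 at 8 d. All 4 combination groups overlapped their vehicle groups, with differences from log2 -0.18 to 0.33 and unadjusted limma p from 0.282 to 0.977. The 95% confidence interval at 24 h, -0.79 to 0.43, does not reach the log2 -1.84 seen at 24 h of galactosamine alone.

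Cyp3a18 fell at 24 h and 48 h of galactosamine alone, and in the combination its fall passed at 24 h only. It read 7.51, 7.86 and 6.71 at 24 h and 7.85 and 8.61 at 48 h of galactosamine, against 9.57, 9.68 and 10.16 and then 10.31, 10.34 and 11.35 in vehicle. These falls were 5.45-fold (log2 -2.45 ± 0.35, adjusted p = 1.19e-07) and 5.41-fold (log2 -2.44 ± 0.39, adjusted p = 4.04e-06). Combination rats read 7.98, 8.47 and 8.14 at 24 h, all below vehicle, a fall of 3.05-fold (log2 -1.61 ± 0.35, adjusted p = 0.00028). At 48 h of the combination (9.87, 10.78 and 9.05) the groups overlapped (log2 -0.77 ± 0.35, adjusted p = 0.138), and without combination rat 71 the difference passed (log2 -1.21, adjusted p = 0.0172). By 8 d Cyp3a18 read 10.54, 10.21 and 9.94 after galactosamine and 10.08, 11.10 and 10.25 in the combination, within log2 0.17 ± 0.35 and 0.42 ± 0.35 of vehicle.

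With nevirapine alone Cyp3a18 read 10.30, 10.41 and 10.26 at 3 h and 10.94, 10.53 and 10.75 at 24 h, above every vehicle rat of those times, where vehicle read 9.55, 9.81 and 9.18 at 3 h. Neither difference passed (log2 0.81 ± 0.35, adjusted p = 0.113, and 0.94 ± 0.35, adjusted p = 0.0779), though both did in fits of their own groups alone (adjusted p = 0.0222 and 0.00674). At 48 h (10.64, 11.52 and 11.20) and 15 d (8.89, 10.30 and 9.88) the groups overlapped vehicle, with differences of log2 0.45 ± 0.35 and -0.37 ± 0.35. With a rat left out these ran from 0.25 to 0.80 and from -0.67 to 0.04, the last without nevirapine rat 43, so the 15 d difference has no settled direction. Vehicle rat 12 (11.35) was the highest vehicle rat at 48 h. With all 15 vehicle rats as 1 control, the 48 h difference was log2 1.10 (adjusted p = 0.0139).

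**Figure D3:**
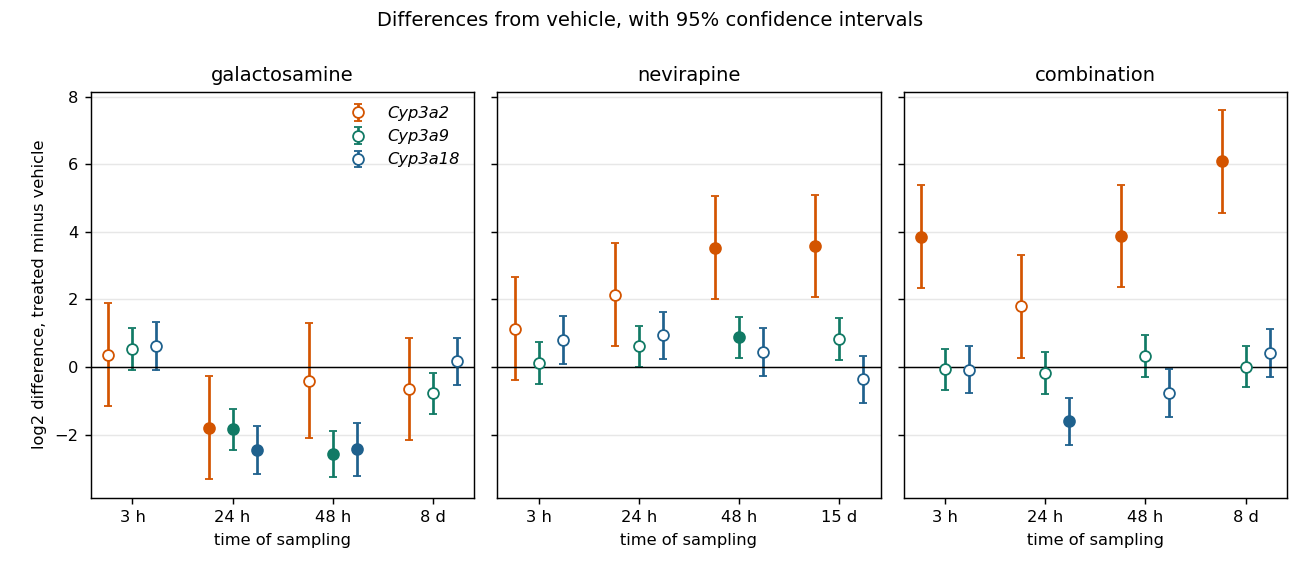
Log2 difference between treated and vehicle rats of the same time (vertical axis; combination at 8 d against vehicle at 15 d) with 95% confidence intervals from limma, filled where the adjusted p was under 0.05 and open elsewhere. Cyp3a2 is the gene that lies well above 0 under nevirapine and the combination, up to 6.08, and Cyp3a9 and Cyp3a18 lie near -2 at 24 h and 48 h of galactosamine.

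Averaged over the 4 times of a treatment, with labels permuted within each time (exact permutation tests, two-sided, 18 tests in the family), Cyp3a2 was higher than vehicle by log2 2.60 under nevirapine (p = 3.75e-05, adjusted p = 0.000169) and by 3.90 in the combination (p = 1.25e-05, the smallest these permutations can give, adjusted p = 0.000113), at 4 of 4 times each. Cyp3a9 was higher by 0.61 under nevirapine at 4 of 4 times (exact p = 0.00386, adjusted p = 0.00869), and lower by 1.16 under galactosamine, where it was higher at 1 of 4 times (exact p = 0.0026, adjusted p = 0.00669). Cyp3a18 under nevirapine did not pass (log2 0.46, exact p = 0.033, adjusted p = 0.0593), it passed without vehicle rat 12 or 14 or nevirapine rat 40 or 43 (permutation adjusted p down to 0.00757), and under galactosamine it fell by 1.02 (exact p = 0.0156, adjusted p = 0.0312), a call lost without galactosamine rat 26 (adjusted p = 0.0567). Cyp3a2 under galactosamine did not pass (log2 -0.62, exact p = 0.148, adjusted p = 0.204). In the combination neither Cyp3a9 (log2 0.02, exact p = 0.865, adjusted p = 0.865) nor Cyp3a18 (log2 -0.51, exact p = 0.0645, adjusted p = 0.106) passed. Cyp3a18 in the combination passed without combination rat 84 (log2 -0.59, permutation adjusted p = 0.0416).

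The genes also differed from each other within the same livers. Under nevirapine the change of Cyp3a2 exceeded that of Cyp3a9 by log2 1.99 (exact permutation p = 0.000625, adjusted p = 0.00225) and that of Cyp3a18 by 2.14 (exact permutation p = 0.0008, adjusted p = 0.0024), at 4 of 4 times each. In the combination the gaps were 3.88 (exact permutation p = 2.5e-05, adjusted p = 0.00015) and 4.41 (exact permutation p = 1.25e-05, adjusted p = 0.000113), again at 4 of 4 times. Cyp3a9 and Cyp3a18 were not told apart under nevirapine (gap of 0.15, exact permutation p = 0.621, adjusted p = 0.657), in the combination (0.53, exact permutation p = 0.125, adjusted p = 0.187) or under galactosamine (-0.14, exact permutation p = 0.572, adjusted p = 0.644). Under galactosamine the gaps of Cyp3a2 to Cyp3a9 (0.54, exact permutation p = 0.273, adjusted p = 0.351) and to Cyp3a18 (0.40, exact permutation p = 0.415, adjusted p = 0.498) did not pass either, and at 48 h they stood at 2.17 and 2.04 without a test of that time alone.

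Set against galactosamine alone at the same time, the combination held Cyp3a2 higher throughout. The difference was 11.2-fold at 3 h (log2 3.49 ± 0.75, adjusted p = 0.000975) and 19.4-fold at 48 h (log2 4.28 ± 0.84, adjusted p = 0.00014). At 24 h, where galactosamine rats were near background, it was at least 9.71-fold (fitted log2 3.60 ± 0.75, adjusted p = 0.000176). At 8 d, as the difference of effects on their own vehicle groups, it was log2 6.73 ± 1.06 (adjusted p = 6.56e-05), the largest of any gene, and log2 5.68 without vehicle rat 100 and 7.58 without vehicle rat 99. Without combination rat 72 the 48 h value was log2 5.22, and without galactosamine rat 26 or 27 it was 3.68 or 4.87. Cyp3a9 was higher in the combination by 3.17-fold at 24 h (log2 1.67 ± 0.30, adjusted p = 2.44e-05) and 7.47-fold at 48 h (log2 2.90 ± 0.34, adjusted p = 1.51e-08), the fourth largest rise at 48 h. Cyp3a18 was higher at 48 h (log2 1.67 ± 0.39, adjusted p = 0.00117) but not past the threshold at 24 h (log2 0.84 ± 0.35, adjusted p = 0.055), though those groups did not overlap and the difference passed without galactosamine rat 23 (log2 1.09, adjusted p = 0.0247). The 48 h call of Cyp3a18 was lost without galactosamine rat 26 (log2 1.29, adjusted p = 0.0627) and in a fit of those 2 groups alone (adjusted p = 0.0717). At 3 h Cyp3a9 and Cyp3a18 were lower in the combination by amounts that did not pass (log2 -0.61 ± 0.30, adjusted p = 0.166, and -0.71 ± 0.35, adjusted p = 0.16). Their 8 d differences, log2 0.78 ± 0.43 and 0.26 ± 0.49, did not pass. These comparisons called 17.7%, 37.8%, 29.3% and 11.2% of all genes at 3 h, 24 h, 48 h and 8 d.

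**Figure D4:**
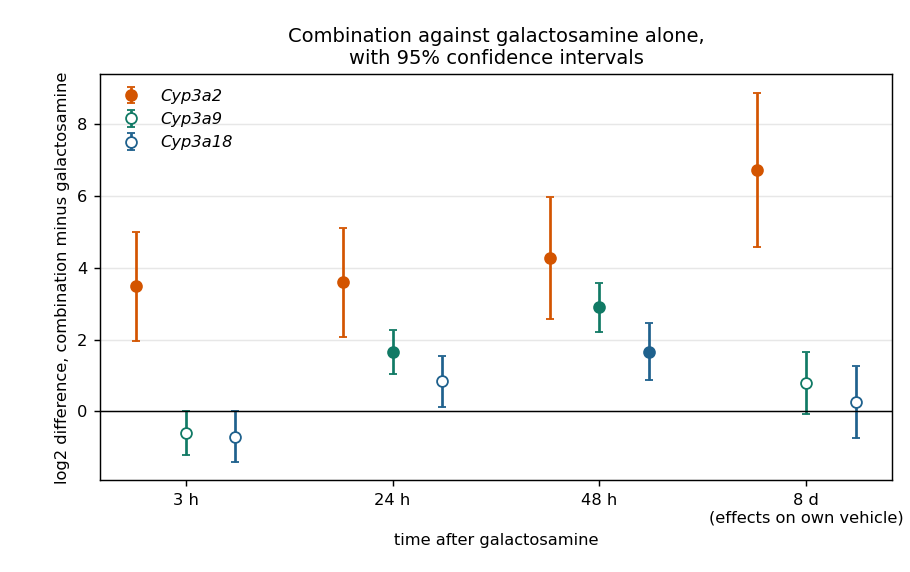
Log2 difference between combination and galactosamine rats at each time after galactosamine (the 8 d points are differences of effects on each group's own vehicle), with 95% confidence intervals from limma, filled where the adjusted p was under 0.05. Cyp3a2 is above 0 at all 4 times, Cyp3a9 at 24 h and 48 h with filled points, and Cyp3a18 at 48 h.

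After the same 15 d of nevirapine, rats that had also received galactosamine had 5.67-fold more Cyp3a2 signal than rats without it (11.35, 12.23 and 11.18 against 8.06, 9.93 and 9.25; log2 2.50 ± 0.75, adjusted p = 0.0214; 12.4% of genes called). The call was lost without nevirapine rat 43 (log2 1.99, adjusted p = 0.139) or combination rat 84 (log2 2.18, adjusted p = 0.104). The departure from the sum of the 2 drugs' own effects was log2 3.15 ± 1.06 (adjusted p = 0.0917, 2.82% of genes called), which passed with array weights (adjusted p = 0.0242) and without vehicle rat 99 (adjusted p = 0.0383). Cyp3a9 went the other way, with 11.51, 11.59 and 11.55 against 12.35, 12.30 and 12.44. Those groups did not overlap, but the difference of log2 -0.82 ± 0.30 did not pass (adjusted p = 0.0716), except in a fit of those groups alone (adjusted p = 0.00108) and with array weights (adjusted p = 0.0102). Cyp3a18 overlapped (log2 0.79 ± 0.35, adjusted p = 0.145). At earlier times the days of dosing differ between nevirapine and the combination, so their Cyp3a2 means stand side by side without a test: 8.05 at 24 h and 10.75 at 48 h of nevirapine, and 9.56 after 7 d, 7.71 after 8 d and 11.10 after 9 d of nevirapine in the combination.

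Effects changed over time most clearly under galactosamine. Between 3 h and 24 h its effect on Cyp3a9 changed by log2 -2.38 ± 0.43 (adjusted p = 1.01e-05) and on Cyp3a18 by -3.08 ± 0.49 (adjusted p = 1.46e-06), in a contrast that called 51.9% of genes. From 48 h to 8 d the effects rose again, by log2 1.80 ± 0.45 for Cyp3a9 (adjusted p = 0.00344) and 2.60 ± 0.52 for Cyp3a18 (adjusted p = 0.000319), where 23.9% of genes were called. For Cyp3a2 the change from 3 h to 24 h did not pass (log2 -2.16 ± 1.06, adjusted p = 0.0865), except in a fit of its own groups (adjusted p = 0.0051) and without galactosamine rat 17 (adjusted p = 0.0424). In the combination, Cyp3a18 changed by -1.53 ± 0.49 between 3 h and 24 h (adjusted p = 0.0164; 28.7% of genes called), a call lost without combination rat 62 (adjusted p = 0.078) or vehicle rat 6 (adjusted p = 0.0513) and with array weights (adjusted p = 0.0508). The change of the Cyp3a2 effect over the same interval did not pass (log2 -2.05 ± 1.06, adjusted p = 0.153), except in a fit of its own groups (adjusted p = 0.0174). From 48 h to 8 d of the combination its effect changed by log2 2.21 ± 1.06, which did not pass (adjusted p = 0.184; 9.01% of genes called). The combination means were 11.10 and 11.59, and those of the vehicle groups subtracted from them were 7.22 and 5.50. Changes between neighbouring times of nevirapine did not pass for any of the 3 genes (adjusted p from 0.332 to 0.983), where 9.05%, 9.95% and 7.16% of genes were called from 3 h to 24 h, 24 h to 48 h and 48 h to 15 d. With array weights Cyp3a18 passed from 48 h to 15 d (log2 -1.09, adjusted p = 0.0346).

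Ordered by group mean, Cyp3a2 ran from the combination at 8 d (11.59), the combination at 48 h (11.10) and nevirapine at 48 h (10.75) down to vehicle at 15 d (5.50) and galactosamine at 24 h (4.11). Of its 16 pairs of neighbours in that order, 15 overlapped, and the lowest group stood apart. Cyp3a9 ran from nevirapine at 15 d (12.37) and 24 h (11.84) and galactosamine at 3 h (11.76) down to galactosamine at 8 d (10.36), 24 h (9.38) and 48 h (8.18). Its last 3 groups were separate from each other, and 13 of 16 neighbours overlapped. Cyp3a18 ran from nevirapine at 48 h (11.12) and 24 h (10.74) and vehicle at 48 h (10.67) down to galactosamine at 48 h (8.23), the combination at 24 h (8.20) and galactosamine at 24 h (7.36), with 14 of 16 neighbours overlapping. The 3 galactosamine-treated groups at the bottom stood apart from the other 14.

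Rats of the same group differed more in these genes than in most. The pooled standard deviation within groups was 0.990 for Cyp3a2, above 99.9% of all genes, 0.394 for Cyp3a9, above 96.9%, and 0.456 for Cyp3a18, above 98.3%. Over the 50 rats, deviations from the group mean of Cyp3a2 and Cyp3a18 moved together (Pearson r = 0.47, permutation p = 0.00312, adjusted p = 0.00936 over 6 relations; Spearman rho = 0.49, permutation p = 0.00242, adjusted p = 0.00726), and r was 0.43 without the 2 most distant rats. In combination rats 71 and 72 at 48 h, for example, Cyp3a2 read 12.08 and 9.20 and Cyp3a18 read 10.78 and 9.05. Deviations of Cyp3a9 were not shown to follow those of Cyp3a2 (r = -0.33, permutation p = 0.121, adjusted p = 0.181; rho = -0.19, permutation p = 0.314, adjusted p = 0.377; r = -0.31 without the 2 most distant rats) or Cyp3a18 (r = -0.17, permutation p = 0.33, adjusted p = 0.33; rho = -0.11, permutation p = 0.528, adjusted p = 0.528; r = -0.22 without those 2 rats). This relation was looked for after the values were seen. The labels used give no date or batch within which to repeat it.

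Cyp3a23-3a1, the neighbour with the same repeat before its start, was bright in every rat, and its signal moved less. Its mean over all samples was above that of 99.8% of genes. Whether so bright a signal reports a rise in full was not tested. Vehicle rats lay between 12.6 and 13.3. It rose under nevirapine at 4 of 4 times, by log2 0.38 ± 0.13 (adjusted p = 0.0495) at 3 h to 0.53 ± 0.13 (adjusted p = 0.00575) at 15 d, and in the combination at 4 of 4 times, by 0.37 to 0.49. All 12 combination rats and 11 of 12 nevirapine rats exceeded the highest of the 15 vehicle rats. Many of these calls were lost when a single rat was left out, down to log2 0.20 (adjusted p = 0.359) at 3 h of nevirapine without vehicle rat 3. It fell at 24 h (log2 -0.67 ± 0.13, adjusted p = 3.67e-05) and 48 h (log2 -0.83 ± 0.15, adjusted p = 2.26e-05) of galactosamine, and the 24 h fall was log2 -0.06 (adjusted p = 0.715) after cyclic loess scaling, which follows differences that depend on brightness. Its deviations within groups followed those of Cyp3a18 (r = 0.54, permutation p = 0.00027, adjusted p = 0.00162; rho = 0.64, permutation p = 9e-05, adjusted p = 0.00054; r = 0.59 without the 2 most distant rats).

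The patterns over the 17 group means were correlated between Cyp3a9 and Cyp3a18 at r = 0.65, between Cyp3a2 and Cyp3a18 at 0.42 and between Cyp3a2 and Cyp3a9 at 0.37. With Cyp3a23-3a1 they were 0.71 for Cyp3a2, 0.85 for Cyp3a9 and 0.60 for Cyp3a18. Groups share rats with no other group, but all arrays share 1 normalization. The search for like genes took the 10680 with a mean above the control level whose symbol does not start with LOC or RGD. Among them, the 5 most like Cyp3a2 were Mnd1 (r = 0.94), a gene of meiotic recombination, Ces2c (0.94), a carboxylesterase, Ddc (0.93), which makes dopamine and serotonin from their precursors, Parp1 (0.89), a sensor of DNA breaks, and Sult1e1 (0.89), the estrogen sulfotransferase. Mnd1 had its lowest group mean of 3.76 at 24 h of galactosamine, below the control level, and its highest of 7.10 at 48 h of the combination. The 5 most like Cyp3a9 were Ces1d (0.93), another carboxylesterase, Cyp2c7 (0.90), a cytochrome P450, Cpq (0.89), a secreted carboxypeptidase, Apoa2 (0.88), an apolipoprotein of high-density lipoprotein, and C10h5orf15 (0.88). Of these, 4 had their lowest group mean at 48 h of galactosamine, as Cyp3a9 did. Those most like Cyp3a18 were Gabarapl1 (0.93), of the autophagy machinery, Ces1e (0.92), Dhrs1 (0.91), Dcxr (0.91), which reduces xylulose, and Cyp4f4 (0.91), a fatty acid hydroxylase. All 5 were lowest at 24 h of galactosamine, and 4 of the 5 were highest at 48 h of nevirapine, as Cyp3a18 was. Since all these genes were picked by their r over the same group means, shared highest and lowest groups follow in part from that choice.

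**Figure D5:**
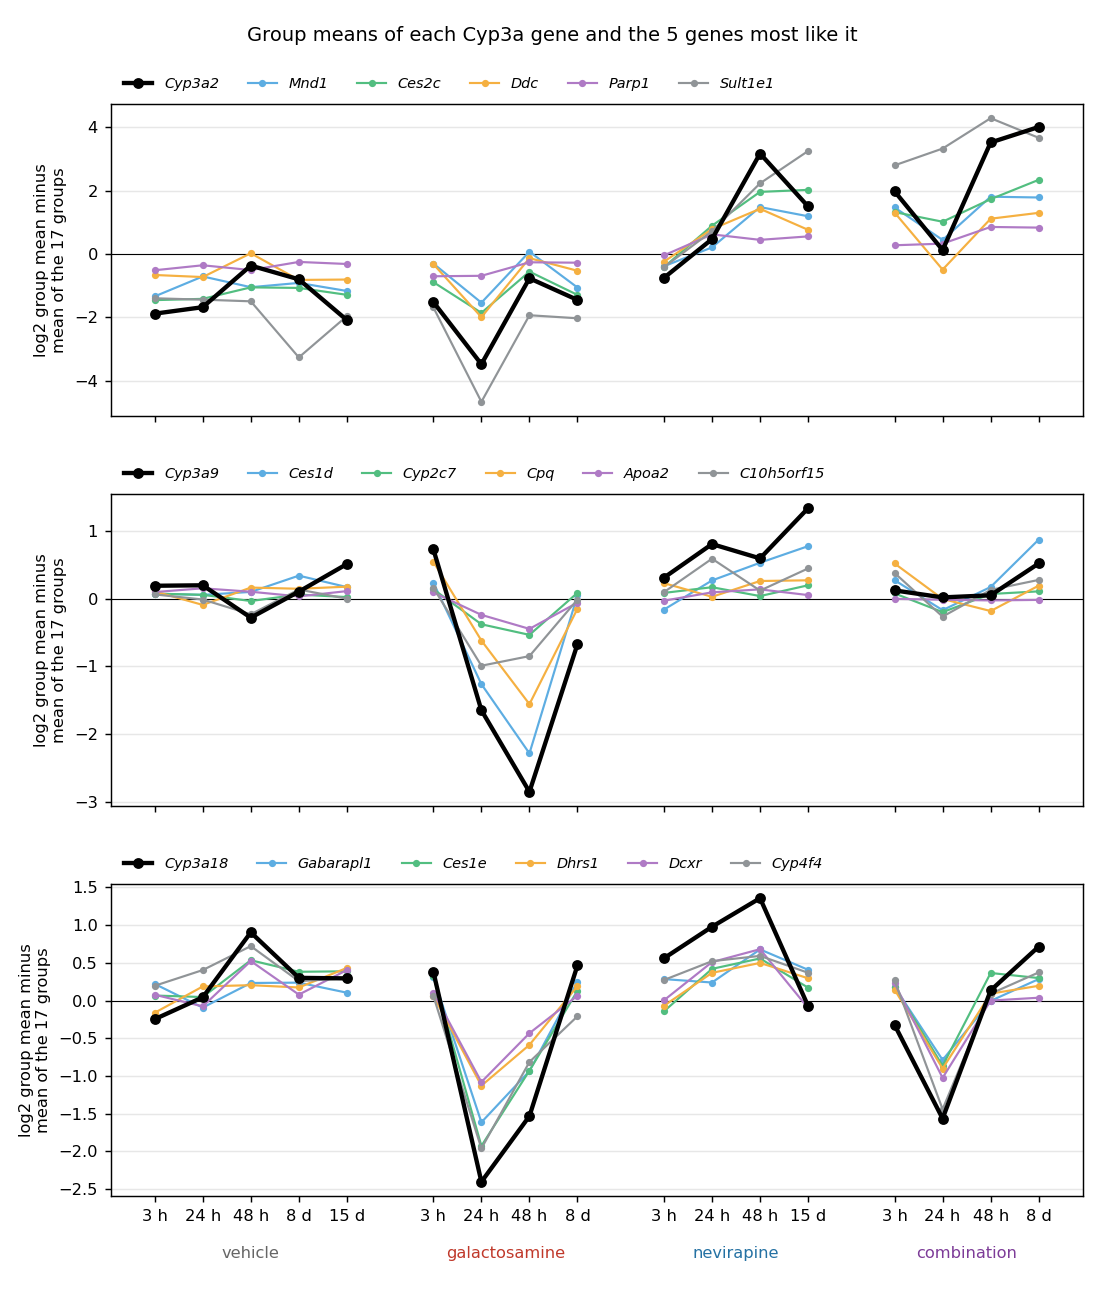
Group means of each Cyp3a gene (black) and of the 5 genes with the highest Pearson r over the 17 group means (colours), as log2 differences from each gene's mean of the 17 groups; lines join the times of a treatment, and vertical scales differ between panels. The Cyp3a2 panel shows the climb under nevirapine and the combination, and the other panels the dip at 24 h and 48 h of galactosamine.

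Other genes known as PXR and CAR targets moved with nevirapine too. Of 17 measured (25 listed), 5 rose at 3 h, 11 at 24 h, 9 at 48 h and 10 at 15 d of nevirapine, and the rest did not pass, with medians of log2 0.19, 1.24, 0.95 and 0.58 against medians of all genes between -0.04 and -0.00 and shares called of 15.1%, 11.2%, 17.4% and 13.9%. In the combination 9, 8, 12 and 11 rose at the 4 times, and 1 fell at 24 h. Of all genes, 32.5%, 36.7%, 15.9% and 24.8% were called at these times. Ces2c rose by log2 3.01 ± 0.25 at 48 h of nevirapine (adjusted p = 2.25e-10) and by 2.43 ± 0.25 at 24 h of the combination (adjusted p = 6.58e-10). Aldh1a1, the retinal dehydrogenase, rose by 1.48 ± 0.29 (adjusted p = 0.00054) and 1.79 ± 0.29 (adjusted p = 4.25e-06), and the aldehyde reductase Akr7a3 by 1.80 ± 0.30 (adjusted p = 6.96e-05) and 2.30 ± 0.30 (adjusted p = 6.07e-08). The organic anion transporter Slco1a4 did not pass at 48 h of nevirapine (0.21 ± 0.24, adjusted p = 0.588) or at 15 d (0.14 ± 0.24, adjusted p = 0.799). It rose at 24 h of nevirapine (1.59 ± 0.24, adjusted p = 2.17e-05) and of the combination (0.61 ± 0.24, adjusted p = 0.0437). At 24 h of galactosamine 4 of the 17 rose and 8 fell (median -0.43), where 58.8% of all genes were called. Slco1a4 (log2 -1.89 ± 0.24, adjusted p = 1.21e-08) and Aldh1a1 (-1.98 ± 0.29, adjusted p = 2.13e-07) were among those that fell.

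Of 18 measured regulators of Cyp3a transcription (20 listed), 10 fell and 1 rose at 3 h of galactosamine (median log2 -0.64), and 9 fell and 5 rose at 24 h (median -0.24), where 32.9% and 58.8% of all genes were called. The gene of CAR, Nr1i3, fell by 2.77 ± 0.31 at 24 h (adjusted p = 7.42e-10), the coactivator Ppargc1a by 2.56 ± 0.36 (adjusted p = 9.06e-08), and the corepressor Nr0b2, also called SHP, by 4.16 ± 0.35 (adjusted p = 3.9e-13). The Ppargc1a mean there, 4.02, was below the control level of 4.37, so the size of its fall is uncertain. Foxa3, a hepatocyte pioneer factor, fell by 2.93 ± 0.19 at 3 h (adjusted p = 2.33e-14) and rose by 2.31 ± 0.19 at 24 h (adjusted p = 3.29e-13). Nr1i2, the gene of PXR, was singled out after its values were seen. It fell by 1.65 ± 0.23 at 24 h of galactosamine (adjusted p = 8.68e-08), by 1.48 ± 0.23 at 24 h of the combination (adjusted p = 2.38e-06), by 0.68 ± 0.23 at 48 h of nevirapine (adjusted p = 0.0381) and by 0.69 ± 0.23 at 15 d of nevirapine (adjusted p = 0.0411), so at 48 h and 15 d of nevirapine it was lower while Cyp3a2 was higher. At 24 h of the combination Nr1i3 differed from vehicle by log2 -0.00 ± 0.31 (adjusted p = 0.995). Of all 18, 3 fell at 48 h of nevirapine and 15 did not pass (median -0.00), near the 17.4% of all genes called there.

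Among 17 measured genes of electron supply and heme handling (18 listed), 12 fell and 1 rose at 24 h of galactosamine (median log2 -1.06; 58.8% of all genes called), including Cyb5b, a form of cytochrome b5 (-2.22 ± 0.15, adjusted p = 6.43e-16), and the heme synthesis enzymes Alad (-2.30 ± 0.18, adjusted p = 8e-14) and Urod (-1.85 ± 0.10, adjusted p = 5.39e-18). Under nevirapine 6 rose at 24 h and 7 at 48 h, and the others did not pass, where 11.2% and 17.4% of all genes were called. Blvrb, a biliverdin reductase, rose by 0.60 ± 0.15 at 48 h of nevirapine (adjusted p = 0.00447) and fell by 1.88 ± 0.15 at 24 h of galactosamine (adjusted p = 6.46e-14). In the combination 4 rose and 9 fell at 24 h (median -0.51), and 9 rose at 48 h (median 0.34), where 36.7% and 15.9% of all genes were called. Alas1, which makes the first heme precursor, and Por, the P450 oxidoreductase, were singled out after their values were seen. Alas1 rose by 1.39 ± 0.23 at 48 h of nevirapine (adjusted p = 8.09e-05) and 1.26 ± 0.23 at 8 d of the combination (adjusted p = 0.000121), and Por by 0.69 ± 0.21 (adjusted p = 0.0173) and 0.76 ± 0.21 (adjusted p = 0.00592).

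Of 7 measured genes known for higher levels in male rat liver (8 listed), 1, 2 and 1 rose at 24 h, 48 h and 15 d of nevirapine, and 4, 2, 3 and 3 in the combination at 3 h, 24 h, 48 h and 8 d. The nevirapine counts lie near the share of all genes called at those times (11.2%, 17.4% and 13.9%), and the combination called 32.5%, 36.7%, 15.9% and 24.8%. Sult1e1 rose by log2 5.20 ± 0.67 at 15 d of nevirapine (adjusted p = 1.28e-06) and 5.62 ± 0.67 at 8 d of the combination (adjusted p = 1.41e-07). Cyp2c11, the main male-specific cytochrome P450 of the rat, rose by 1.49 ± 0.27 at 3 h of the combination (adjusted p = 3.95e-05), while Cyp2a2 fell by 1.69 ± 0.36 at 8 d of it (adjusted p = 0.000635). The Cyp2a2 mean there was 4.42, near the control level of 4.37. Of the 7, 1 fell at 24 h and 1 at 8 d of the combination, and 3 fell at 24 h and 1 at 48 h of galactosamine (medians log2 -0.34 and -0.23). Of 5 genes known for higher levels in females, 3 fell at 24 h, 1 at 48 h and 1 at 8 d of the combination. With galactosamine 2 of them fell at 24 h and 1 at 48 h (medians log2 -0.34 and -0.22), where 58.8% and 39.4% of all genes were called. At 15 d of nevirapine 1 rose. In the combination the prolactin receptor Prlr fell by 1.16 ± 0.28 at 24 h (adjusted p = 0.000966), 0.89 ± 0.28 at 48 h (adjusted p = 0.0252) and 1.05 ± 0.28 at 8 d (adjusted p = 0.00549). After galactosamine alone it fell by 1.76 ± 0.31 at 48 h (adjusted p = 2.21e-05). A1bg, at -3.05 ± 1.18 at 8 d of the combination, did not pass (adjusted p = 0.0531).

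Cyp3a enzymes lie mainly around the central vein of the liver lobule. Of 10 pericentral genes, 9 fell and 1 rose at 24 h of galactosamine (median log2 -1.02, against -0.07 for all genes, of which 58.8% were called). At 48 h of galactosamine 3 fell, a smaller share than the 39.4% of all genes called there. At 24 h of the combination 6 fell (median -0.54), where 36.7% of all genes were called. Regucalcin (Rgn) fell by 3.57 ± 0.28 (adjusted p = 6.16e-14) and ornithine aminotransferase (Oat) by 2.96 ± 0.26 (adjusted p = 1.55e-12) at 24 h of galactosamine. Glul, glutamine synthetase, fell by 1.50 ± 0.27 (adjusted p = 1e-05) there and by 1.29 ± 0.27 at 24 h of nevirapine (adjusted p = 0.0012), where the higher Cyp3a2 signal did not pass. Of 9 hepatocyte markers, 3 fell and 1 rose at 24 h of galactosamine (median -0.10), a smaller share than the 58.8% of all genes. Of 15 markers of other liver cells (16 listed), 8 rose at 3 h and 9 at 48 h of galactosamine, where 32.9% and 39.4% of all genes were called. At 24 h of galactosamine 5 rose and 2 fell, again a smaller share than the 58.8% of all genes. At 3 h, 24 h, 48 h and 8 d the combination called 32.5%, 36.7%, 15.9% and 24.8% of all genes. Of the 15 markers, 10, 9, 7 and 5 rose at these times, and 1 fell at 8 d. The log2 of their summed signals lay between 12.2 and 12.5 at 24 h of galactosamine and 12.9 and 13.1 at 8 d of the combination, against 11.3 to 11.7 in vehicle at 24 h and 11.6 to 11.9 in vehicle at 15 d. Of these markers, 3 (Krt7, Cd3g and Cd79b) had means at or below the control level. Lgals3, a galectin of macrophages, rose by 3.71 ± 0.35 (adjusted p = 8.15e-12) at 24 h of galactosamine, and the leukocyte gene Ptprc by 1.47 ± 0.28 (adjusted p = 1.9e-05). Their part in the Cyp3a values was not tested.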

How the data were processed

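RNA of 50 livers was measured on Affymetrix rat arrays. The authors deposited log2 probe set signals; the submitters' processing notes name RMA and limma without versions. The values were used as deposited. Of 31099 probe sets, 20826 had 1 symbol, 436 several and 9831 none, and 6 array controls with a symbol were left out, which gave 14217 genes with 1 probe set each (the brightest where a gene had several). Limma 3.58.1 in R 4.3.3 fitted 17 group means to all arrays, without pairing, since rat numbers are not shared between groups. Calls use adjusted p under 0.05. Exact permutation tests used 160000 regroupings within times (80000 for galactosamine). All 3 genes and the lists, and the rule for list members (up to 4 per list by size at 48 h of nevirapine or 24 h of galactosamine), were chosen with earlier results of these data known. Code was tested on simulated data. Promoters come from RefSeq (GRCr8). Batches were not analysed here, as the labels used give none. With 3 arrays a group, precision is limited.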

Additional observations from a re-analysis of the deposited data

Results flagged for a closer look

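Differences of effects, each effect taken against its own vehicle group, were tested between times and, at 8 d, between treatments, and 6 passed for these genes. For Cyp3a2 the combination effect at 8 d exceeded the galactosamine effect by log2 6.73 ± 1.06 (limma adjusted p = 6.56e-05). For Cyp3a9 the galactosamine effect changed by log2 -2.38 between 3 h and 24 h (adjusted p = 1.01e-05) and by 1.80 between 48 h and 8 d (adjusted p = 0.00344). For Cyp3a18 it changed by log2 -3.08 (adjusted p = 1.46e-06) and 2.60 (adjusted p = 0.000319) over the same intervals, and the combination effect changed by -1.53 between 3 h and 24 h (adjusted p = 0.0164). Groups of 3 are too small for a test of single outlying rats, so vehicle rat 100 (Cyp3a2 at 8.89) and combination rat 72 (9.20) are given by value only.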

How the results depend on the processing

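No called difference of the 3 genes turned its sign under any setting run. With a rat left out, 18 of 59 that were not called did, and so have no settled direction. Under other settings 5 of 50 that were not called did. Fits of the compared groups alone, the trended, robust prior, leaving out dim genes and the mean of probe sets keep each difference unchanged. Those settings could not turn a sign. Of the limma values under other settings, 533 kept their side of the threshold, 28 gained the call and 6 lost it. With a rat left out, 583 limma values kept it, 6 gained and 14 lost it. The permutation results are not in these counts, while the counts of signs with a rat left out include them. In fits of the compared groups alone these passed: Cyp3a9 at 3 h of galactosamine (0.54), 15 d of nevirapine (0.82), in the combination against galactosamine at 3 h (-0.61) and against nevirapine at 15 d (-0.82); Cyp3a18 at 3 h of galactosamine (0.63) and 3 h and 24 h of nevirapine (0.81 and 0.94); Cyp3a2 at 24 h of nevirapine (2.14) and the combination (1.80), and its change from 3 h to 24 h under galactosamine (-2.16) and the combination (-2.05). Cyp3a2 at 48 h of the combination (3.88) and Cyp3a18 against galactosamine at 48 h (1.67) were lost there. A trended, robust prior lost Cyp3a2 at 24 h of galactosamine (-1.80). Without the dimmest 40% of genes, Cyp3a2 at 24 h of nevirapine (2.14) and the combination (1.80), Cyp3a9 at 15 d (0.82) and Cyp3a18 against galactosamine at 24 h (0.84) passed. With array weights, Cyp3a2 at 24 h of nevirapine (2.19), its departure from additivity (3.00), Cyp3a9 at 24 h (0.78) and 15 d (0.84) of nevirapine and against nevirapine at 15 d (-0.81), and Cyp3a18 against nevirapine at 15 d (0.86) and from 48 h to 15 d of nevirapine (-1.09) passed, and Cyp3a18 from 3 h to 24 h of the combination (-1.41) was lost. With all vehicle rats as 1 control, Cyp3a9 at 8 d of galactosamine (-0.82) and 15 d of nevirapine (1.19), Cyp3a2 at 24 h of nevirapine (1.83) and the combination (1.48) and Cyp3a18 at 48 h of nevirapine (1.10) passed, and Cyp3a9 at 48 h of nevirapine (0.45) was lost. Compared directly at 8 d, Cyp3a9 in the combination exceeded galactosamine by 1.19 and passed. With the GAPDH gap as a covariate, a setting chosen after seeing the data, Cyp3a9 at 48 h of nevirapine was 0.77 and lost. Cyclic loess moved no call of the 3 genes. The mean of probe sets, which is among the settings counted above, cannot move their values, since each has 1 probe set. All values are log2 differences, and the cause of these moves was not tested.

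Leaving out each rat in turn gave these ranges: Cyp3a2 departure from additivity 2.10 to 3.996, at 24 h of galactosamine -2.04 to -1.52, at 24 h of nevirapine 1.46 to 2.58, from 3 h to 24 h of galactosamine -2.69 to -1.70, and against nevirapine at 15 d 1.99 to 2.93; Cyp3a9 at 48 h of nevirapine 0.69 to 1.12; Cyp3a18 at 48 h of the combination -1.21 to -0.35, from 3 h to 24 h -1.69 to -1.22 and from 48 h to 8 d 0.77 to 1.63 of the combination, and against galactosamine at 24 h 0.51 to 1.09 and at 48 h 1.23 to 2.09. Where 1 galactosamine rat remained at 48 h, it was assumed to vary like the other groups.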
